A study of Mus musculus with 6 samples.

Results

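The SR and hnRNP splicing factor genes were taken as every gene symbol made of Srsf and a number, or of Hnrnp and a letter name, leaving out symbols marked as pseudogenes. The rule found 31 genes among 53927 symbols, of which 11 were SR genes and 20 were hnRNP genes. All 31 passed the filter on low counts and were tested.

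SR proteins carry RNA recognition motifs and a tail rich in arginine and serine, and they mostly promote the use of exons by binding enhancer sequences and recruiting the spliceosome. hnRNP proteins coat nascent transcripts, and many of them repress exons or compete with SR proteins for nearby sites, so that the balance between both families sets which exons are kept. Many genes of both families limit their own protein by splicing in an exon, or keeping an intron, that sends the transcript to nonsense-mediated decay. In embryonic stem cells (ESCs) these proteins are abundant, as in other dividing cells.

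RNA-seq of total RNA depleted of ribosomal RNA covered 6 libraries labelled as wild-type mouse ESCs of the line E14. In 3 libraries the cells were kept in BRD0705/PD03, which is N2B27 medium with 8 µM BRD0705, an inhibitor selective for the kinase GSK3 alpha, and 1 µM PD0325901, an inhibitor of MEK. The other 3 libraries were from cells in 2i, the same medium with 3 µM CHIR-99021, which inhibits both GSK3 kinases, and 1 µM PD0325901. Both groups thus shared the MEK inhibitor, and neither was free of a GSK3 inhibitor. The protocol, unlike the cell line label, speaks of B6D2F1 ESCs derived separately in each medium and grown on feeder cells, so that medium and derivation cannot be told apart.

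Libraries held 16968959 to 51180228 counts, and the shallowest and deepest were both 2i libraries. Of 11 ESC markers, all were above 0 in every library, 6 were higher in BRD0705/PD03 (such as Zfp42, at 1.15 ± 0.04 on the log2 scale) and 4 were lower (such as Nanog, at -0.95 ± 0.05, and Esrrb, at -0.64 ± 0.04). Their summed level was 2986 to 3104 CPM in BRD0705/PD03, against 3114 to 3281 CPM in 2i, where CPM are counts scaled to a common library size. Of 22 fibroblast markers, 21 were higher in BRD0705/PD03 and the other did not pass the test. None of the 22 was at 0 in any library, and their summed level was 1358 to 2007 CPM in BRD0705/PD03, against 717 to 762 CPM in 2i. Y-linked Ddx3y averaged 122 ± 7.06 CPM in BRD0705/PD03, against 3.03 ± 0.26 CPM in 2i (SD, n = 3 each), although all 6 libraries carry the label of 1 line. The part of these differences between the libraries in the values below was not tested, except where stated. In bulk RNA, fewer cells of a type and less RNA per cell cannot be told apart.

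More SR and hnRNP genes were higher than lower in BRD0705/PD03, nearly all by small margins. Of the 11 SR genes, 7 were higher and 1 was lower, and 3 did not pass the test. Of the 20 hnRNP genes, 10 were higher and 3 lower, and 7 did not pass. The highest log2 fold change was that of Hnrnph1, at 0.48 ± 0.05, and the lowest was that of Srsf12, at -0.80 ± 0.24. A gene counts as higher or lower here where edgeR's quasi-likelihood test gave an adjusted p under 0.05 by the Benjamini-Hochberg method over all 20422 genes tested. Each log2 fold change sets BRD0705/PD03 over 2i and is given ± its standard error.

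The medians lay above that of the transcriptome, while calls were common everywhere. SR genes had a median log2 fold change of 0.16 and hnRNP genes one of 0.11, beside 0.00 over all genes tested. The test called 61.4% of all genes, 30.1% as higher and 31.4% as lower, so the 21 of 31 members called lie near that background. In a separate fit restricted to 16044 genes averaging 1 CPM or more, 34.6% were higher and 34.2% lower, and there 13 hnRNP genes were higher and 3 lower. Libraries of the groups did not overlap for 22 of the 31 members, and likewise for 66.0% of all genes. No member differed by more than 2-fold, beside 21.8% of all genes. Against a fold of 1.5 instead of no change, the test called 24.9% of all genes and only 1 member, Hnrnph2.

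**Figure D1:**
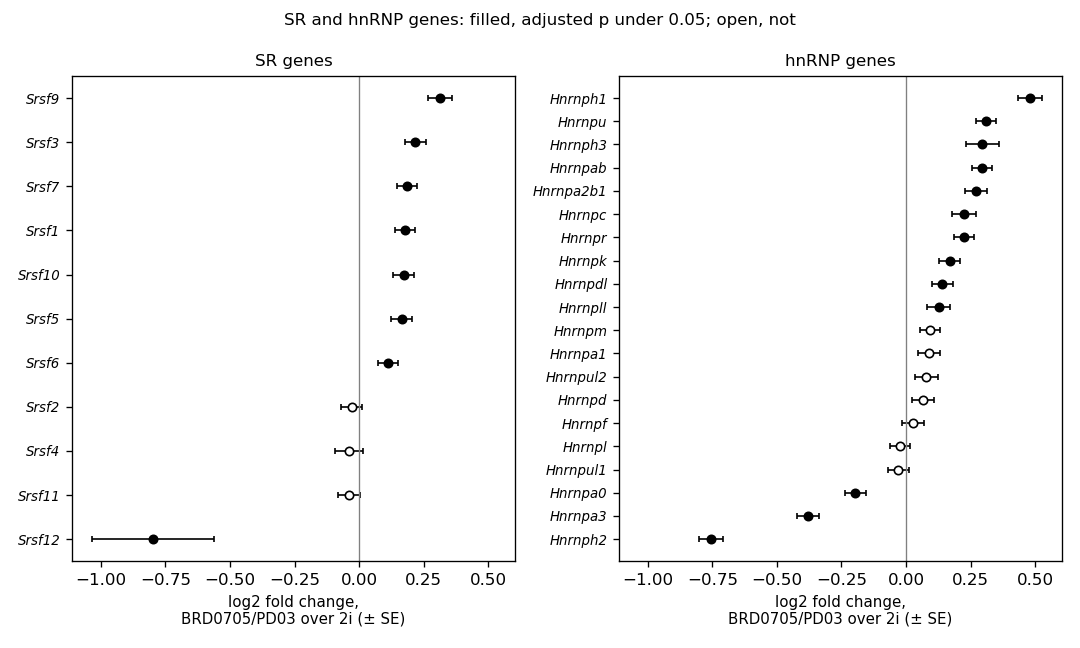
Log2 fold change of BRD0705/PD03 over 2i (horizontal axis, bars ± SE) for the 11 SR genes (left) and 20 hnRNP genes (right), each ordered from highest to lowest. Filled points had an adjusted p under 0.05; most lie between 0.1 and 0.5 above 0, with Srsf12, Hnrnph2, Hnrnpa3 and Hnrnpa0 below it.

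Together the members took 1.29%, 1.30% and 1.31% of all counts in BRD0705/PD03 libraries, against 1.18%, 1.15% and 1.18% in 2i libraries. The SR genes alone summed to 3914 ± 91.3 CPM in BRD0705/PD03, against 3553 ± 60.2 CPM in 2i (SD, n = 3 each). The hnRNP genes summed to 9041 ± 206 CPM in BRD0705/PD03, against 8211 ± 67.8 CPM in 2i. Replicates of a group lay close together, with a median coefficient of variation over members of 2.91% in BRD0705/PD03 and 2.75% in 2i. The exception was Srsf12, a gene with few counts, at 11.8% in BRD0705/PD03 and 34% in 2i.

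The promoters below are shown because they belong to the members with the highest and the lowest log2 fold change of each family. They are windows on GRCm38.p6, from 250 bases before to 50 after the outermost RefSeq start, written along the gene's own strand. The Srsf12 window lies inside the gene span given further below, which is from another annotation, GENCODE M21. Capitals mark exact matches, on either strand, to the motifs listed after them.
Hnrnph1 promoter: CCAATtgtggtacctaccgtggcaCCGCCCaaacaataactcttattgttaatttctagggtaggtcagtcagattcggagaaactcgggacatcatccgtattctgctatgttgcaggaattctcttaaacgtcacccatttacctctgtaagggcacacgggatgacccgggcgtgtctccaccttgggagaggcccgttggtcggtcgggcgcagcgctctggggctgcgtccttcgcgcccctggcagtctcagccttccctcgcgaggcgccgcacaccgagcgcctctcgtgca
Hnrnph2 promoter: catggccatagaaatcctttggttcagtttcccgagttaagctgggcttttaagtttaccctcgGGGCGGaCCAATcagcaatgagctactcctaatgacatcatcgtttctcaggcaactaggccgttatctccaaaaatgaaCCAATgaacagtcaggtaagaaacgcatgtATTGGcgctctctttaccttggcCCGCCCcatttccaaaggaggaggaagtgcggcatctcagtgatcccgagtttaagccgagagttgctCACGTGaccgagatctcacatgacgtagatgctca
Srsf9 promoter: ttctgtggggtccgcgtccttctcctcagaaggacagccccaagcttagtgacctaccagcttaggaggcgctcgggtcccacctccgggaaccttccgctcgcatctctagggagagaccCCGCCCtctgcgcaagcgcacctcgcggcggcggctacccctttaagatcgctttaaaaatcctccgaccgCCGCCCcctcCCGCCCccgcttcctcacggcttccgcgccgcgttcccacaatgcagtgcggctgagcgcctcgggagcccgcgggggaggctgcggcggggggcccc
Srsf12 promoter: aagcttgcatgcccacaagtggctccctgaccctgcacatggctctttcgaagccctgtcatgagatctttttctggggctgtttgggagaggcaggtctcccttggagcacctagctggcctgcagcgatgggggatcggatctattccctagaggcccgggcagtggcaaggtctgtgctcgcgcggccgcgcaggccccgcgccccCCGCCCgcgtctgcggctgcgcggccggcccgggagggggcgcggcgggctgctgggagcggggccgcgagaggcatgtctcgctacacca
The windows lie at chr11:50376740-50377039, chrX:134600929-134601228, chr5:115326927-115327226 and chr4:33209022-33209321, all on the plus strand. Searched were the TATA box TATAAA, the CCAAT box CCAAT, the GC box GGGCGG, the ETS core CCGGAAG, the E-box CACGTG, the element TCTCGCGA, the NRF1 core GCGCATGC and the TCF/LEF core CTTTGAT. TCTCGCGA can overlap its own reverse complement, and matches to different motifs may overlap. Of the 31 members, 29 matched a window, and Hnrnpll and Hnrnpul2 did not.

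GC boxes were in 23 of 29 member windows (79.3%), beside 59.4% of the windows of 12655 tested genes and 35.9% of all 27025 windows. CCAAT boxes were in 16 (55.2%), beside 39.1% of tested genes and 38% of all windows. TCTCGCGA was in the windows of Hnrnph3, Srsf10 and Srsf4 (10.3%), beside 2.1% of tested genes and 1.09% of all. TATA boxes were in 4 member windows (13.8%, beside 8.53% of tested genes and 14.2% of all windows) and ETS cores in 6 (20.7%, beside 16.2% and 9.14% in the same order). E-boxes were in 4 (13.8%, beside 9.77% and 7.24%) and the NRF1 core in 1 (3.45%, beside 4.84% and 2.8%). The TCF/LEF core was in none of the 29, beside 2.76% of tested genes and 3.76% of all windows. Member windows had a median of 68.3% G and C, beside 60% over tested genes.

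Among the SR genes, Srsf1 and its close relative Srsf9 both rose. Srsf1, the prototype of the family and a binder of exonic splicing enhancers (chromosome 11, 88047373 to 88053755, plus strand), had 848, 897 and 874 CPM in BRD0705/PD03 libraries, against 781, 762 and 771 CPM in 2i libraries. The groups did not overlap, and the log2 fold change was 0.18 ± 0.04 (adjusted p = 0.000717). Srsf9, which shares the domain layout of Srsf1 (chromosome 5, 115327177 to 115333080, plus strand), had 55.7, 57.4 and 54.7 CPM in BRD0705/PD03 libraries, against 45.5, 45.2 and 44.4 CPM in 2i libraries. It had the highest log2 fold change of the SR genes, at 0.31 ± 0.05 (adjusted p = 8.6e-06).

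Srsf3 and Srsf7, small SR proteins that also serve as adaptors for mRNA export, rose side by side. Srsf3 (chromosome 17, 29032628 to 29043373, plus strand) had 741, 774 and 763 CPM in BRD0705/PD03 libraries, against 669, 663 and 626 CPM in 2i libraries (log2 fold change 0.22 ± 0.04, adjusted p = 0.000147). Srsf7, the SR protein with a zinc knuckle (chromosome 17, 80200080 to 80207307, minus strand), had 329, 345 and 339 CPM in BRD0705/PD03 libraries, against 300.3, 302 and 288 CPM in 2i libraries (log2 fold change 0.19 ± 0.04, adjusted p = 0.000478). For both genes the groups were fully separated. Their ratio, Srsf3 over Srsf7, was 2.25 ± 0.00554 in BRD0705/PD03 and 2.20 ± 0.0277 in 2i. This small difference was also without overlap (two-sided exact permutation p = 0.1, 0.108 adjusted over 14 ratios of paired genes).

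Srsf4, Srsf5 and Srsf6, which share a second, atypical RNA recognition motif, did not all pass the test. Srsf5 (chromosome 12, 80945504 to 80950507, plus strand) had 522, 549 and 536 CPM in BRD0705/PD03 libraries, against 487, 465 and 481 CPM in 2i libraries. Srsf6 (chromosome 2, 162931528 to 162937121, plus strand) had 368, 379 and 377 CPM in BRD0705/PD03 libraries, against 355, 348 and 337 CPM in 2i libraries. Both rose without overlap between groups, by a log2 fold change of 0.16 ± 0.04 (adjusted p = 0.00141) for Srsf5 and 0.11 ± 0.04 (adjusted p = 0.0184) for Srsf6. With BRD0705/PD03 replicate 2 left out Srsf6 missed the threshold (adjusted p = 0.0621), and so it did with replicate 3 left out (adjusted p = 0.0642). Srsf4 (chromosome 4, 131873617 to 131901706, plus strand) had 48.9, 46.9 and 49.6 CPM in BRD0705/PD03 libraries, against 48.0, 53.8 and 47.1 CPM in 2i libraries, with overlapping groups, and did not pass the test (-0.04 ± 0.05, adjusted p = 0.559).

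Srsf2, long used as a marker of nuclear speckles, and Srsf11 also did not pass. Srsf2 (chromosome 11, 116849901 to 116853094, minus strand) had 425, 452 and 443 CPM in BRD0705/PD03 libraries, against 466, 440.3 and 441 CPM in 2i libraries (-0.03 ± 0.04, adjusted p = 0.564). Srsf11, which partners the U2AF complex at the 3′ splice site (chromosome 3, 158010473 to 158036639, minus strand), had 189, 192 and 186 CPM in BRD0705/PD03 libraries, against 203, 182 and 198 CPM in 2i libraries (-0.04 ± 0.04, adjusted p = 0.455). In both genes the groups overlapped.

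Srsf10, a splicing repressor that is activated by loss of its phosphates, and its paralog Srsf12 went in opposite directions. Srsf10 (chromosome 4, 135855747 to 135869908, plus strand) had 291, 308 and 301 CPM in BRD0705/PD03 libraries, against 265, 258 and 276 CPM in 2i libraries, without overlap (log2 fold change 0.17 ± 0.04, adjusted p = 0.00123). Srsf12 (chromosome 4, 33208991 to 33233340, plus strand) had 1.02, 1.23 and 1.28 CPM in BRD0705/PD03 libraries, against 1.54, 1.76 and 2.84 CPM in 2i libraries. The groups did not overlap, but 2i replicate 3 stood well above its companions, and the log2 fold change of -0.80 ± 0.24 (adjusted p = 0.00661) became -0.50 and lost its call without that library (adjusted p = 0.0764). Raw counts of Srsf12 were 33, 34 and 52 in BRD0705/PD03 libraries, against 26, 88 and 72 in 2i libraries.

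The hnRNP F/H genes held both the highest and the lowest log2 fold change of the hnRNP family. These proteins bind runs of guanines and can enhance or repress the exon nearby. Hnrnph1 (chromosome 11, 50376990 to 50386528, plus strand) had 535, 561 and 552 CPM in BRD0705/PD03 libraries, against 413, 368 and 401 CPM in 2i libraries. Hnrnph2, its X-linked paralog (chromosome X, 134601179 to 134607060, plus strand), had 136, 151 and 150.0 CPM in BRD0705/PD03 libraries, against 245, 239 and 255 CPM in 2i libraries. Neither gene's groups overlapped, and the changes ran in opposite directions, at 0.48 ± 0.05 (adjusted p = 2.8e-08) for Hnrnph1 and -0.76 ± 0.05 (adjusted p = 4.8e-11) for Hnrnph2. In BRD0705/PD03, Hnrnph2 fell by 40.8% and Hnrnph1 rose by 39.5%.

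The ratio of Hnrnph1 to Hnrnph2 CPM does not depend on how libraries are scaled. It was 3.94, 3.71 and 3.68 in BRD0705/PD03 libraries, against 1.69, 1.54 and 1.57 in 2i libraries. The ratios of the groups did not overlap (two-sided exact permutation test, p = 0.1, the smallest that 3 against 3 allows, and 0.108 adjusted over 14 such ratios). By the same exact permutation test, all of the 14 ratios except Hnrnpdl over Hnrnpd reached this smallest value. The test therefore does not set Hnrnph1 over Hnrnph2 apart from the other ratios.

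Of 566 X-linked genes that averaged 1 CPM or more, Hnrnph2 included, 410 were lower and 83 were higher. Over these genes the median log2 fold change was -0.80, with quartiles of -1.25 and -0.16, and 302 of them (53.4%) were lower still than Hnrnph2. Of 15142 autosomal genes chosen in the same way, 5134 were lower and 5053 were higher, with a median of -0.004. The media and the sex-chromosome differences separate the same libraries and cannot be told apart. All other members are autosomal, spread over 15 chromosomes.

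**Figure D2:**
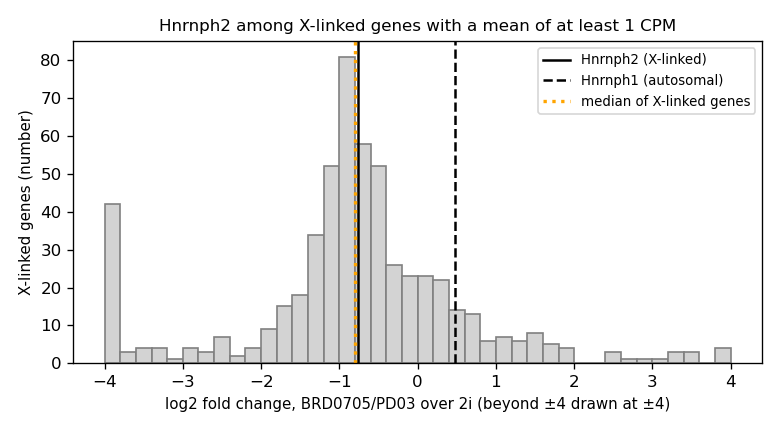
Number of X-linked genes averaging 1 CPM or more (vertical axis) by log2 fold change of BRD0705/PD03 over 2i (horizontal axis). Hnrnph2 (solid line, -0.76) lies beside the median of the 566 X-linked genes (dotted line, -0.80), while the autosomal Hnrnph1 (dashed line) lies at 0.48.

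Of the other F/H genes, 1 rose. Hnrnph3, a shorter relative (chromosome 10, 63014664 to 63024217, minus strand), had 21.8, 20.8 and 22.7 CPM in BRD0705/PD03 libraries, against 18.3, 17.6 and 17.5 CPM in 2i libraries, and rose without overlap between groups (0.29 ± 0.06, adjusted p = 0.000576). Hnrnpf (chromosome 6, 117900324 to 117925622, plus strand) had 992, 1075 and 1027 CPM in BRD0705/PD03 libraries, against 1025, 1017 and 996 CPM in 2i libraries. Its groups overlapped and it did not pass the test (0.03 ± 0.04, adjusted p = 0.611). By edgeR with upper-quartile factors Hnrnpf passed as higher (adjusted p = 0.0184).

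The hnRNP A genes were divided as well. Their proteins bind silencer sequences in exons and introns and shift the choice of splice sites. Hnrnpa2b1 (chromosome 6, 51460932 to 51469894, minus strand) had 537, 535 and 556 CPM in BRD0705/PD03 libraries, against 459, 427 and 465 CPM in 2i libraries, and rose by a log2 fold change of 0.27 ± 0.04 (adjusted p = 1.9e-05). Hnrnpa3 (chromosome 2, 75659261 to 75669407, plus strand) had 209, 218 and 224 CPM in BRD0705/PD03 libraries, against 272, 281 and 293 CPM in 2i libraries, and was lower, at -0.38 ± 0.04 (adjusted p = 2.3e-07). The groups did not overlap for either gene.

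Hnrnpa0, a gene without introns (chromosome 13, 58125879 to 58128556, minus strand), had 132, 137 and 143 CPM in BRD0705/PD03 libraries, against 159.5, 155 and 158 CPM in 2i libraries, and was lower without overlap (-0.20 ± 0.04, adjusted p = 0.000404). Hnrnpa1, the best studied of the group (chromosome 15, 103240432 to 103246692, plus strand), had 768, 816 and 823 CPM in BRD0705/PD03 libraries, against 755, 782 and 728 CPM in 2i libraries. Its groups overlapped and it did not pass (0.09 ± 0.04, adjusted p = 0.087), although it passed as higher without BRD0705/PD03 replicate 1 (adjusted p = 0.0176) or 2i replicate 2 (adjusted p = 0.00824). On all 6 libraries Hnrnpa1 also passed as higher in some alternative fits, such as DESeq2 (adjusted p = 0.0495) and edgeR with upper-quartile factors (adjusted p = 0.000733). The ratio of Hnrnpa2b1 to Hnrnpa3 was 2.50 ± 0.0539 in BRD0705/PD03 and 1.60 ± 0.0819 in 2i (SD, n = 3 each; two-sided exact permutation p = 0.1, 0.108 adjusted over the 14 ratios).

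**Figure D3:**
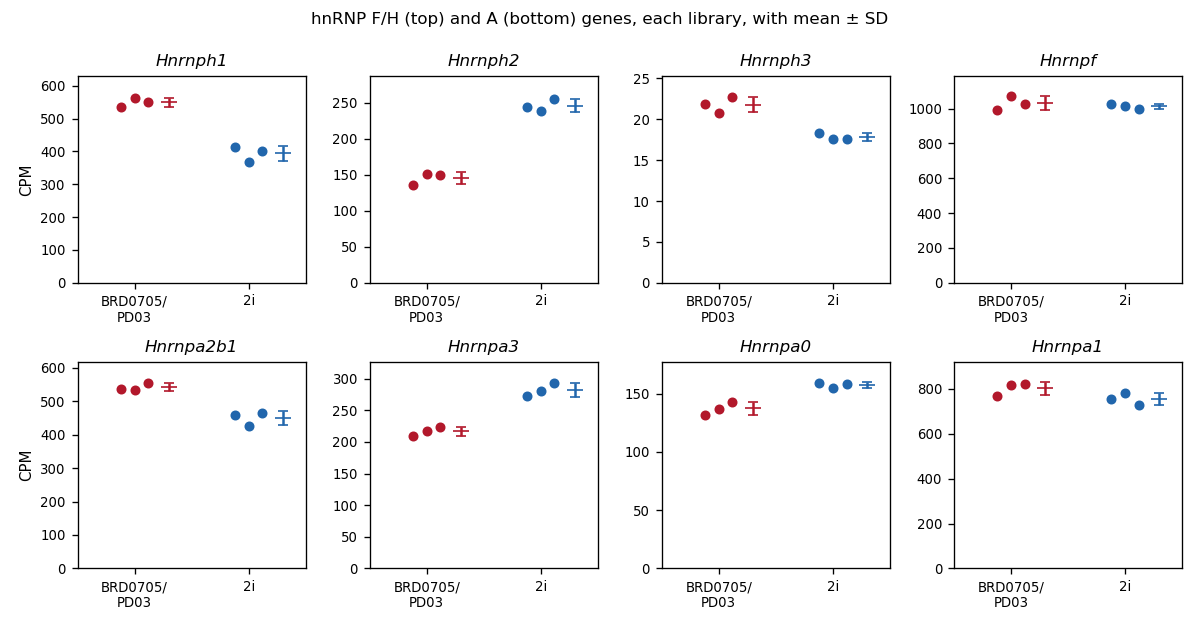
CPM of the hnRNP F/H genes (top) and hnRNP A genes (bottom) in each BRD0705/PD03 library (left, red) and each 2i library (right, blue), with the mean ± SD beside the points and axes from 0. Hnrnph1, Hnrnph3 and Hnrnpa2b1 stand higher in BRD0705/PD03, Hnrnph2, Hnrnpa3 and Hnrnpa0 stand lower, and Hnrnpf and Hnrnpa1 overlap.

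Hnrnpab, Hnrnpd and Hnrnpdl encode related proteins, of which Hnrnpd is known for binding AU-rich elements and hastening mRNA decay. Hnrnpab (chromosome 11, 51600100 to 51606847, minus strand) had 617, 657 and 618 CPM in BRD0705/PD03 libraries, against 519.9, 516 and 507 CPM in 2i libraries. Hnrnpdl (chromosome 5, 100033577 to 100039664, minus strand) had 404, 416 and 420.0 CPM in BRD0705/PD03 libraries, against 387, 369 and 369.7 CPM in 2i libraries. Both rose without overlap, by 0.29 ± 0.04 (adjusted p = 3.8e-06) for Hnrnpab and 0.14 ± 0.04 (adjusted p = 0.00451) for Hnrnpdl. Hnrnpd (chromosome 5, 99955935 to 99978938, minus strand) had 105, 103 and 112 CPM in BRD0705/PD03 libraries, against 98.3, 103 and 105 CPM in 2i libraries. Its groups overlapped and it did not pass (0.07 ± 0.04, adjusted p = 0.214), although with upper-quartile factors in edgeR it passed as higher (adjusted p = 0.0111).

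Hnrnpu, which also binds chromatin as scaffold attachment factor A (chromosome 1, 178321108 to 178337797, minus strand), had more CPM than any other member, with 1473, 1492 and 1509 CPM in BRD0705/PD03 libraries, against 1208, 1174 and 1227 CPM in 2i libraries. The groups did not overlap and the log2 fold change was 0.31 ± 0.04 (adjusted p = 1.9e-06). Its paralogs did not pass the test. Hnrnpul1 (chromosome 7, 25721165 to 25754757, minus strand) had 146, 150.4 and 153 CPM in BRD0705/PD03 libraries, against 159, 149 and 152 CPM in 2i libraries (-0.03 ± 0.04, adjusted p = 0.558). Hnrnpul2 (chromosome 19, 8820010 to 8834143, plus strand) had 94.2, 98.4 and 103 CPM in BRD0705/PD03 libraries, against 88.7, 95.4 and 95.7 CPM in 2i libraries (0.08 ± 0.05, adjusted p = 0.15), and passed as higher without BRD0705/PD03 replicate 1 (adjusted p = 0.0435). On all 6 libraries Hnrnpul2 also passed as higher by edgeR with upper-quartile factors (adjusted p = 0.00664). Groups overlapped for both paralogs, and Hnrnpu over Hnrnpul1 was 9.95 ± 0.115 in BRD0705/PD03 and 7.85 ± 0.229 in 2i.

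Hnrnpl binds CA repeats, and its paralog Hnrnpll is known for repressing exons of Ptprc in lymphocytes. Hnrnpl (chromosome 7, 28808541 to 28822266, plus strand) had 415, 431 and 427 CPM in BRD0705/PD03 libraries, against 443, 429 and 421 CPM in 2i libraries, with overlap, and did not pass (-0.02 ± 0.04, adjusted p = 0.622). Hnrnpll (chromosome 17, 80029487 to 80062334, minus strand) had 88.6, 94.8 and 95.6 CPM in BRD0705/PD03 libraries, against 86.6, 85.1 and 84.1 CPM in 2i libraries. It rose without overlap (0.13 ± 0.04, adjusted p = 0.0169). Leaving out BRD0705/PD03 replicate 2 (adjusted p = 0.0705) or 3 (adjusted p = 0.0836) ended that call.

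Among the remaining hnRNP genes, 3 rose. Hnrnpc, which binds uridine tracts (chromosome 14, 52073377 to 52104028, minus strand), had 503, 524 and 536 CPM in BRD0705/PD03 libraries, against 449, 469.9 and 419 CPM in 2i libraries (0.22 ± 0.05, adjusted p = 0.000294). Hnrnpk, which binds cytosine-rich RNA through KH domains (chromosome 13, 58391142 to 58403343, minus strand), had 1150.0, 1200.2 and 1167 CPM in BRD0705/PD03 libraries, against 1051, 1059 and 1018 CPM in 2i libraries (0.17 ± 0.04, adjusted p = 0.00129). The groups did not overlap in either. Hnrnpr, a relative of Syncrip (chromosome 4, 136310942 to 136359447, plus strand), had 153, 161 and 156 CPM in BRD0705/PD03 libraries, against 133, 132 and 138 CPM in 2i libraries, also without overlap (0.22 ± 0.04, adjusted p = 7.2e-05). Hnrnpm (chromosome 17, 33646233 to 33686860, minus strand) had 324, 337 and 345 CPM in BRD0705/PD03 libraries, against 319, 309 and 316 CPM in 2i libraries. Its groups did not overlap but it missed the threshold (0.09 ± 0.04, adjusted p = 0.0519), and it passed as higher without BRD0705/PD03 replicate 1 (adjusted p = 0.0116) or without 2i replicate 1 (0.0493), 2 (0.0427) or 3 (0.018). On all 6 libraries Hnrnpm also passed as higher in some alternative fits, such as DESeq2 (adjusted p = 0.0253) and edgeR with RLE factors (adjusted p = 0.0396).

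Levels can be compared between genes only per length, here CPM per kb of the longest principal transcript in GENCODE M21. By this measure Hnrnpk (438 CPM per kb in BRD0705/PD03, against 389.6 in 2i), Hnrnpf (429.5 CPM per kb in BRD0705/PD03, against 422 in 2i) and Hnrnpa1 (418 CPM per kb in BRD0705/PD03, against 394 in 2i) stood highest among hnRNP genes in both groups. Among SR genes the highest were Srsf5 (342 CPM per kb in BRD0705/PD03, against 305 in 2i), Srsf3 (289.9 CPM per kb in BRD0705/PD03, against 249 in 2i) and Srsf2 (232 CPM per kb in BRD0705/PD03, against 237 in 2i). Srsf12 was lowest of all (0.400 CPM per kb in BRD0705/PD03, against 0.696 in 2i). The value of Hnrnpr is less certain, because its principal transcript is annotated with 21452 bases.

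Some members have near-identical copies, which were assigned counts of their own. Whether those reads came from the copy or from the member was not tested. Annotated transcripts elsewhere in the genome, with at least 95% identity over at least 300 bases, were found for 10 members. Copies of Hnrnpa1 took 24.6% of the joint CPM of gene and copies in BRD0705/PD03 and 24.9% in 2i, and the copy with the most CPM was Gm10052. For Hnrnpa3, with 25 copies, the shares were 18.1% in BRD0705/PD03 and 13.7% in 2i (copy with the most CPM Gm5641). For Srsf3, with 3 copies, they were 9.71% in BRD0705/PD03 and 8.51% in 2i (copy with the most CPM Gm9761). With copies added to their gene, the log2 fold change was 0.08 for Hnrnpa1, -0.30 for Hnrnpa3 and 0.24 for Srsf3, and no member changed its call. The other 7 members had under 1% on copies in either group, by the same measure. Exons of 13 members overlap those of another annotated gene, such as Hnrnpab with Phykpl on the opposite strand (809 bases) and Hnrnpm with March2 on the same strand (1169 bases), and their reads may not be told apart.

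Many members have annotated transcripts of the kinds that are degraded or kept in the nucleus. In GENCODE M21, 19 of the 31 members (61.3%) have at least 1 transcript annotated as a target of nonsense-mediated decay, beside 26.8% of 14803 tested protein-coding genes. A transcript with a retained intron is annotated for 22 members (71%), beside 54.6% of those genes. Members have a median of 7 annotated transcripts, beside 5. The deposited counts are sums per gene and do not separate these transcripts.

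Genes that act on or beside these proteins moved in both directions. Of 12 kinases, phosphatases and import factors of SR proteins, 8 were higher and 3 lower (median log2 fold change 0.25). Calls took 91.7% of this list, beside 61.4% of all genes tested (30.1% higher and 31.4% lower). Clk2, a kinase that phosphorylates SR proteins in the nucleus, averaged 48.6 ± 0.99 CPM in BRD0705/PD03, against 28.3 ± 1.07 CPM in 2i (SD, n = 3 each), a change of 0.79 ± 0.05 (adjusted p = 1.5e-10). Its relatives parted, with Clk1 higher (0.63 ± 0.05, adjusted p = 1.8e-09) and Clk3 lower (-0.56 ± 0.05, adjusted p = 1.8e-08). Prpf4b, a spliceosome kinase, was higher (0.34 ± 0.04), and Dyrk1a (-0.18 ± 0.04) and the X-linked, low-count Srpk3 (-0.80 ± 0.20) were lower. Of 18 SR-like and SR-related genes, 9 were higher and 4 lower (72.2% called, beside 61.4% of all genes, median 0.10). Son, a speckle scaffold (0.38 ± 0.04), Luc7l3 (0.33 ± 0.04) and Thrap3 (0.31 ± 0.04) were among the higher genes. Rsrc1 (-0.33 ± 0.06), Srrm1 (-0.25 ± 0.04) and Luc7l (-0.19 ± 0.04) were lower.

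Other hnRNP-type RNA-binding genes went both ways, with 10 of 25 higher and 9 lower (76% called, beside 61.4% of all genes, median 0.07). Ptbp2, the neural relative of Ptbp1, averaged 107 ± 2.55 CPM in BRD0705/PD03, against 56.5 ± 2.45 CPM in 2i (0.92 ± 0.05, adjusted p = 2.2e-12). Ptbp3 went the other way, at 137 ± 13.4 CPM in BRD0705/PD03, against 265 ± 7.59 CPM in 2i (-0.96 ± 0.06, adjusted p = 8.6e-08). The poly-C binding gene Pcbp4 (1.40 ± 0.06) and Tia1 (0.60 ± 0.06) were higher, and Fubp3 (-0.46 ± 0.04) was lower. Nono, a paraspeckle gene on the X chromosome, was lower at 407 ± 9.54 CPM in BRD0705/PD03, against 699 ± 15.3 CPM in 2i (-0.78 ± 0.04).

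The list of regulated splicing factors held the largest difference among these lists. Of 20 listed, 18 passed the filter, 9 were higher and 5 lower (77.8% of the 18 called, beside 61.4% of all genes, median 0.27). By more than 2-fold 5 differed, beside 21.8% of all genes. Esrp1, a splicing factor of epithelial cells, averaged 56.6 ± 0.153 CPM in BRD0705/PD03, against 0.892 ± 0.206 CPM in 2i (6.06 ± 0.09, adjusted p = 1.3e-19). Rbm20, known for splicing titin, was higher (1.52 ± 0.06), as was Rbpms (0.60 ± 0.04), while the RNA-binding genes Qk (-0.66 ± 0.05), Rbm38 (-0.35 ± 0.06) and Mbnl1 (-0.15 ± 0.05) were lower. Levels of Rbfox1 and Rbm24 were under the filter.

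Core spliceosome and decay genes moved in both directions. Of 23 Sm, U1 and U2 proteins, 6 were higher and 5 lower (47.8% called, beside 61.4% of all genes), with a median of -0.02. The SF3B subunits Sf3b3 (0.29 ± 0.04), Sf3b2 (0.17 ± 0.04) and Sf3b1 (0.17 ± 0.04) were higher, and Sf3b5 (-0.39 ± 0.05), Snrpb2 (-0.26 ± 0.04) and Snrpa (-0.22 ± 0.04) were lower. Among 21 proteins of the U4/U6.U5 tri-snRNP, 10 were higher and 4 lower (66.7% called, near the share of all genes, median 0.08). Prpf4 (0.44 ± 0.04), Txnl4a (0.38 ± 0.05) and Lsm6 (0.20 ± 0.05) were higher, and Usp39 (-0.33 ± 0.04), Prpf6 (-0.24 ± 0.04) and Snrnp27 (-0.23 ± 0.06) were lower. Of 15 genes of nonsense-mediated decay, 3 were higher and 7 lower (66.7% called, also near that share), with a median of -0.09. Upf2 (-0.35 ± 0.04) and the X-linked Upf3b (-0.96 ± 0.05) were lower, and Smg5 (0.23 ± 0.04), Magoh (0.20 ± 0.04) and Magohb (0.22 ± 0.08) were higher.

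**Figure D4:**
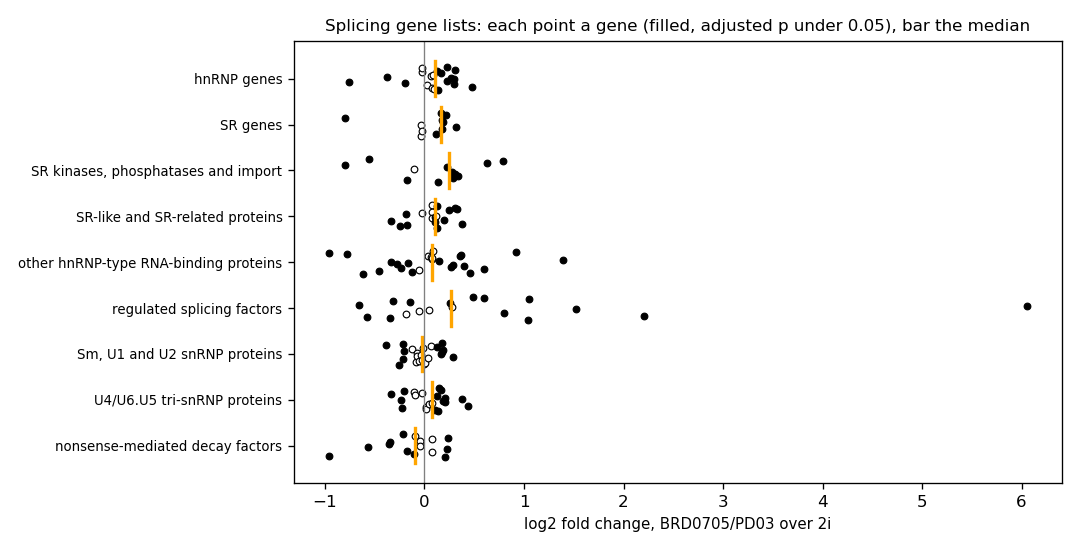
Log2 fold change of BRD0705/PD03 over 2i (horizontal axis) for each gene of the hnRNP and SR families and of 7 companion lists, with filled points for adjusted p under 0.05 and a bar at each median. Medians lie between -0.09 and 0.27, SR and hnRNP genes lie within 1 of 0, and Esrp1 stands apart at 6.06.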

How the data were processed

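The deposited values are whole-number estimated counts for 53927 gene symbols in each library. Per the submitters' processing notes the authors used Salmon and the mm10 build. Version, annotation, strand setting and the way transcripts were summed were not given in the sources used here. Such estimates divide reads between near-identical sequences, and without a known strand setting reads of overlapping antisense genes cannot be told apart: 13 members share exon bases with another annotated gene.

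Groups came from sample titles. Whether libraries came from separate cultures is not labelled; p-values then reflect the spread of these libraries alone, which may be technical. Pairs within a group differed beyond sampling noise (chi-square per degree of freedom 2.77 to 9.84). The two-sided quasi-likelihood test of edgeR 4.0.16 (R 4.3.3) was applied to the counts, with filterByExpr, TMM factors and robust estimation, over 20422 genes. Standard errors were taken from the fold change and its F statistic, and CPM use effective library sizes. The steps were tested on simulated data. Alternatives included DESeq2 1.42.0.

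Coordinates are from GENCODE M21 on GRCm38, the assembly also called mm10; 51945 symbols matched 1 gene. The members and lists were chosen with earlier results of these data known. All members are named; of each companion list, up to 3 called genes per direction with the smallest p are named, except 1 gene that is not reported here. Protein sequences were not used here.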

Additional observations from a re-analysis of the deposited data

How the results depend on the processing

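Every called member kept its direction under each of the 15 alternatives that tested it, and 18 of 21 kept their call in all of these except the test against a fold of 1.5. Leaving out X- and Y-linked genes removes Hnrnph2, so that it has no value there and 2 lower hnRNP genes are left. The test against a fold of 1.5, by edgeR's glmTreat, called 2498 genes as higher and 2596 as lower. Among SR genes 0 were higher and 0 lower in it, and among hnRNP genes 0 were higher and 1 lower. At an unadjusted p under 0.05 the member counts there were the same. Against no change DESeq2 called 7 SR genes as higher and 1 as lower, and 12 hnRNP genes as higher and 3 as lower. Upper-quartile factors moved the median of all genes to 0.07, the SR median to 0.23 and the hnRNP median to 0.17. With these factors 15 hnRNP genes were higher, and 5 genes that did not pass turned to small positive values, namely Hnrnpl (0.0416), Hnrnpul1 (0.0363), Srsf11 (0.0262), Srsf2 (0.0361) and Srsf4 (0.0265). Higher genes were then 55% of all calls, beside 48.9% with TMM factors.

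Leaving out each library gave 6 to 7 higher and 0 to 1 lower SR genes, 9 to 13 higher hnRNP genes and 3 lower ones. The count of 0 came without 2i replicate 3, where 1 SR gene was lower at an unadjusted p under 0.05. Genes that did not pass crossed 0 in such fits, with ranges of -0.0047 to 0.0574 for Hnrnpf, -0.0356 to 0.00198 for Hnrnpl, -0.0423 to 0.00235 for Hnrnpul1, -0.0487 to 0.00379 for Srsf2 and -0.0747 to 0.0471 for Srsf4. Adding copies to their gene, chosen after seeing the data, changed no member's call. Same-numbered libraries did not deviate together (correlations of -0.00822, 0.034 and -0.0357), so the numbers were not taken as pairs; with the replicate number as a block 6059 genes were higher and 6376 lower, and no member's call changed. A member that did not pass is not shown to be unchanged. Srsf12 rests on 26 to 88 counts.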

Other observations

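Symbols of the families that are marked as pseudogenes were left out by the rule. Hnrnpa1l2-ps2 held 16, 26 and 20 counts in BRD0705/PD03 libraries, against 15, 32 and 20 in 2i libraries. Hnrnpa1l2-ps held 1 count in 1 BRD0705/PD03 library and 0 in the other libraries.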
